A study of Mus musculus with 6 samples.

Results

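Semaphorins, ephrins, slits, netrins and their receptors are the classical axon guidance families, which also steer the movement and sorting of cells outside the nervous system. The group was taken by gene symbol: semaphorins of classes 3 to 7, plexins, neuropilins, slits 1 to 3, robos 1 to 3, netrins, Unc5 receptors, Eph receptors and ephrins. This gave 67 genes, 35 for ligands and 32 for receptors, of 20678 genes with a probe set of their own on the array. Gene expression was measured on Affymetrix Mouse Genome 430 2.0 arrays in wild-type C57Bl6 mouse embryos at E12.5, midway through gestation, with 1 array for each of 6 samples of the embryonic liver. The samples were liver cells, cells sorted as positive for ALCAM (ALCAM+), an immunoglobulin adhesion molecule, and 4 fractions sorted further from these. One sort gave PDPN+ and PDPN- cells, the other ITGA8+ and ITGA8- cells. PDPN is podoplanin, a surface glycoprotein of mesothelium, and ITGA8 is the integrin alpha 8 subunit, by which the study isolated hepatic stellate cells, liver mesenchymal cells that store vitamin A. The number of embryos behind each sample is not given in the sources used here. With no replicates there was no test and no spread between samples, and each difference below is one between 2 arrays.

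Secreted class 3 semaphorins bind neuropilins, which signal through A-type plexins, while the membrane-bound semaphorins of the other classes mostly bind plexins directly. Ephrins are themselves bound to the membrane, by a lipid anchor in the A class and by a transmembrane segment in the B class, and Eph receptors are receptor tyrosine kinases that read them on neighbouring cells. Slits are large secreted ligands of robo receptors, and netrins are laminin-related proteins that signal through DCC, neogenin and the Unc5 receptors.

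The deposited values are linear intensities. A gene was followed through 1 probe set, the one whose mean in the 4 fractions was highest, and differences were taken on log2(intensity + 16), a scale that understates the difference of low genes. Genes were compared only if at least one of the arrays in question read more than 109.0, the median of all probe set values, called the floor here. Because probe sets differ in affinity, intensities were compared between arrays for 1 gene and not between genes. The 4 fraction arrays share a scale, and the liver and ALCAM+ arrays are on another, lower one, so differences were taken within each set. Among the fractions the median gene was lowest in PDPN- cells, at 245, against 381.5 in PDPN+, 366 in ITGA8+ and 400 in ITGA8- cells. No shift was subtracted between fractions. The sort markers followed the labels. Alcam was at 13425 in ALCAM+ and 3207 in liver, Pdpn at 7746 in PDPN+ and 117 in PDPN-, and Itga8 at 4354 in ITGA8+ and 871 in ITGA8-. ITGA8+ cells had Pdpn at 4658, and PDPN- cells had Itga8 at 2215, above the 737 of PDPN+ cells. Which cells the 2 sorts share was not tested.

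Of the 67 genes, 57 exceeded the floor in at least 1 fraction and 35 in all 4. Epha5, an Eph receptor of neurons, exceeded it only in liver. The other 9, Sema7a, Epha6, Epha8, Epha10, Slit1, Robo3, Ntn3, Ntn4 and Unc5d, stayed at or below the floor on every array, with Ntn4 reaching exactly 109 in ITGA8+. Over the 4 fractions 44 of the 57 genes varied by 2-fold or more, or 77.2%, where the share over all genes was 57.7%. Without the PDPN- array, an alternative chosen after seeing the data, 26 of the 57 did so, or 45.6%, against 36.4% of all genes. Genes entered both counts through any 1 fraction, so their lower arrays could be below the floor. The counts thus describe the members and are not evidence about them.

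Between PDPN+ and PDPN- cells, guidance genes were mostly higher on the PDPN+ side. Of 49 above the floor, 27 were 2-fold higher in PDPN+ cells, where 19.9% of all genes were, and 2 were 2-fold lower, where 7.93% of all genes were. The 27 were 15 ligand and 12 receptor genes. Of the 27, 9 were at or below the floor in PDPN- cells and could enter only through the PDPN+ array, so these counts describe the members and are not evidence about them. The median difference of the 49 was 1.19 on the log2 scale, and that of all genes 0.04. The balance of higher and lower genes moved with the scaling: 23 and 6 after quantile normalisation and 24 and 6 after a loess correction, where all genes went from 71.5% higher among those past 2-fold to 59.0% and 56.1%.

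Markers of other cells moved with this split. The mesothelial list includes Pdpn, the marker of this sort, at 7746 against 117, so its direction was set by the sort. All 12 mesothelial markers were 2-fold higher in PDPN+ cells, with a summed intensity of 64597 against 1574. So were 12 of 12 megakaryocyte markers (36450 against 372), 11 of 11 macrophage markers above the floor (36237 against 714), 9 of 9 neutrophil markers (30049 against 203) and 5 of 6 endothelial markers (5618 against 1594). None of these markers was at an intensity of 0. Hepatic stellate markers went the other way or stayed close, with 3 of 12 lower, 1 higher and sums of 30611 and 41252. Hepatoblast markers were present in both fractions, at sums of 169396 in PDPN+ and 209176 in PDPN- cells. Of these 12, Foxa1 and Foxa2 were 2-fold lower in PDPN+ cells and 0 higher. In ITGA8+ and ITGA8- cells the hepatoblast sums were 150632 and 126720, with 0 of 12 past 2-fold. Erythroid markers were higher in PDPN+ cells for 3 of 10 (8076 against 4321) and lower for 0. The part of these cells in the differences of the guidance genes was not tested, and fewer cells of a type and less RNA per cell cannot be told apart.

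Between ITGA8+ and ITGA8- cells the guidance genes differed less. Of 57 above the floor, 6 were 2-fold higher in ITGA8+ cells, where 5.38% of all genes were, and 6 were 2-fold lower, where 6.0% of all genes were. The higher ones were Unc5a, Unc5c, Sema4f, Sema5b, Plxnb3 and Ephb6, and the lower ones Sema3c, Sema3g, Plxna4, Efna1, Efna4 and Epha7. For 3 of the higher ones, Sema5b, Plxnb3 and Unc5a, the ITGA8- array was at or below the floor. For 1 of the lower ones, Sema3g, the ITGA8+ array was. These entered through 1 array alone, so the counts describe the members and are not evidence about them. The median difference was -0.06, against 0.00 for all genes. After quantile normalisation the counts were 6 and 4, with 62.0% of all genes past 2-fold on the higher side in place of 47.3%. The stellate list includes Itga8, the marker of this sort, at 4354 against 871, so its direction was set by the sort. Of 12 mesothelial markers 10 were lower in ITGA8+ cells (summed 20988 against 49191). Of 12 stellate markers 7 were higher (51133 against 27316), as were 10 of 12 megakaryocyte markers (43777 against 18519). Their part was not tested here either.

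The 6 genes lower in ITGA8+ cells were all among the 27 higher in PDPN+ cells. Genes past 2-fold in both splits on these opposite sides were thus 6 of the 49 members above the floor in both, or 12.2%, where 2.5% of all genes were. For Sema3c, Sema3g, Plxna4 and Efna4 the PDPN- array was at or below the floor, and for Sema3g the ITGA8+ array as well. These genes entered the PDPN split only through the PDPN+ array, so the count describes the members and is not evidence about them. No member was higher in both PDPN- and ITGA8+ cells, where 0.789% of all genes were, and 1, Unc5c, was higher in both PDPN+ and ITGA8+, where 1.1% were. None was higher in both PDPN- and ITGA8-, where 0.242% were. The differences in the 2 splits, which share no array, correlated at -0.492 (Pearson's r) and -0.522 (Spearman's rho) over the 49 members. Over 12801 genes the values were -0.164 and -0.123. The points of each set share the same 4 arrays, and genes are not independent replicates.

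**Figure D1:**
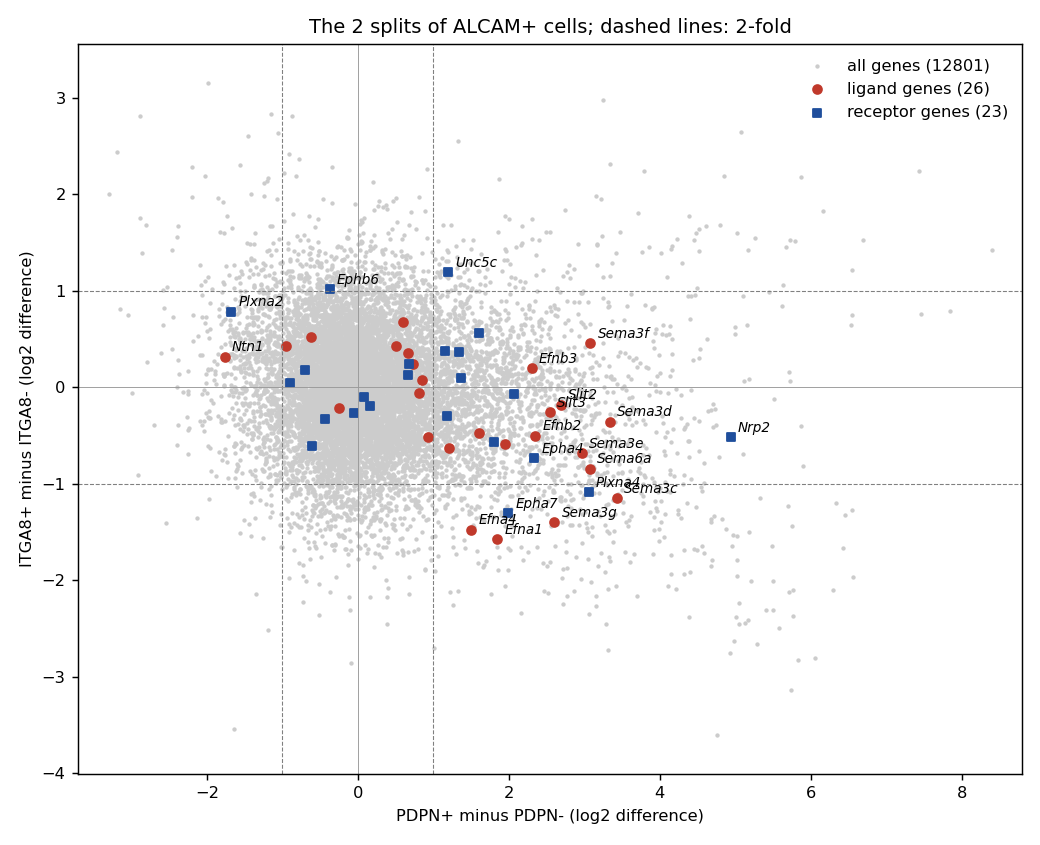
Log2 difference of each gene between PDPN+ and PDPN- cells (horizontal axis) and between ITGA8+ and ITGA8- cells (vertical axis), with all 12801 genes above the floor in both in grey, 26 ligand genes as red circles and 23 receptor genes as blue squares; dashed lines mark 2-fold. Sema3c, Sema3g, Plxna4, Efna1, Efna4 and Epha7 lie past 2-fold at the lower right, and Unc5c stands alone past both lines at the upper right.

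**Figure D2:**
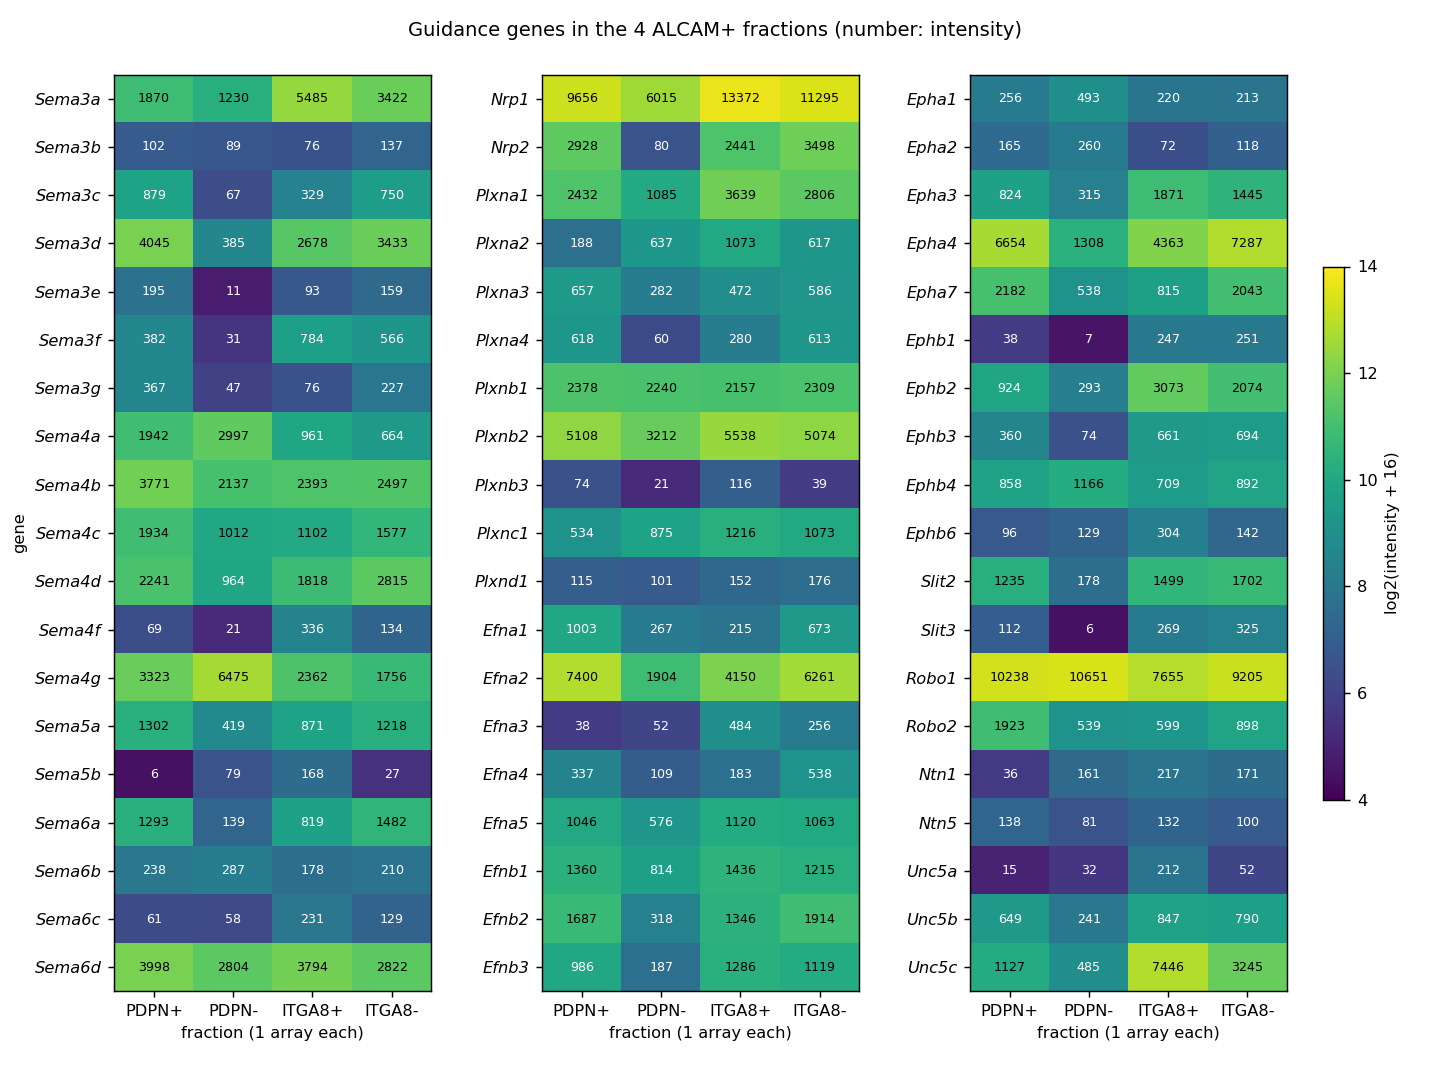
Intensity of the 57 guidance genes above the floor in at least 1 fraction (rows, grouped by family) on the PDPN+, PDPN-, ITGA8+ and ITGA8- arrays (columns), coloured by log2(intensity + 16). The PDPN- column is the darkest for many rows, Nrp2 at 80 among them, while Robo1, Plxnb1 and Plxnb2 are similar across the columns.

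For 40 of the 57 genes the PDPN- array was the lowest of the 4 fractions, a pattern looked for after the values were seen and present in 40.3% of all genes. This array also had the lowest median gene intensity of the 4 fractions, at 245, and the part of that in these counts was not tested. The PDPN- array was 2-fold below each other fraction for 22 of the 57, or 38.6%, against 13.5% of all genes. It was 2-fold above each other fraction for 0, against 4.4%. Among the 22, Sema3c, Sema3e, Sema3f, Sema4f, Nrp2, Plxna4, Ephb1, Ephb3 and Slit3 were below the floor in PDPN- cells and entered only through other fractions. The counts thus describe the members and are not evidence about them. The ITGA8+ array was the highest of the 4 for 22 genes, against 33.6% of all genes, and the PDPN+ array for 16, against 20.2%. No gene had its ITGA8- array 2-fold below or 2-fold above each other fraction, where 0.352% and 0.393% of all genes did.

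PDPN- and ITGA8+ cells, the fractions with the higher Itga8 of each sort, were also set against each other. In ITGA8+ cells 29 of 57 genes were 2-fold higher than in PDPN- cells, against 28.0% of all genes, and 4 were lower, against 13.7%. Genes entered through any of the 4 fractions, so Sema3e counted with ITGA8+ at 93 and PDPN- at 11, both below the floor. The PDPN- array was also below the floor for Nrp2, Plxna4, Plxnb3, Sema3c, Sema3f, Sema4f, Sema6c, Slit3, Efna3, Ephb1, Ephb3 and Unc5a. Epha2, among the lower genes, had its ITGA8+ array below the floor. The counts thus describe the members and are not evidence about them. Summed markers differed as well between ITGA8+ and PDPN- cells, and their part was not tested. The sums were 43777 against 372 for megakaryocytes, 53440 against 4321 for erythroid cells, 20988 against 1574 for mesothelium and 9125 against 1594 for endothelium. The mesothelial sum includes Pdpn, the marker of the PDPN sort.

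Promoter sequences of 4 of the genes are given because they stand for the patterns in the data: Nrp2, with the largest difference between PDPN+ and PDPN- cells among the members, Sema3c, past 2-fold in opposite directions in the 2 splits, Sema3d, the member furthest above liver in ALCAM+ cells, and Unc5c, higher in ITGA8+ and in PDPN+ cells. Each is the 250 bases before the gene's start in RefSeq, build GRCm38.p6, written 5′ to 3′ on the gene's strand, which is the plus strand for all 4. The windows are chr1:62703067-62703316 for Nrp2, chr5:17574566-17574815 for Sema3c, chr5:12382916-12383165 for Sema3d and chr3:141465314-141465563 for Unc5c. Capitals mark matches on either strand to 5 motifs. These were the GC box, spelled GGGCGG; the motif of TEAD factors, for which the letters GGAATG were searched; the motif of GATA factors, with the letters AGATAA; the TATA box, written as TATAAA; and the E-box that SNAI and ZEB factors bind, here CACCTG.
Nrp2: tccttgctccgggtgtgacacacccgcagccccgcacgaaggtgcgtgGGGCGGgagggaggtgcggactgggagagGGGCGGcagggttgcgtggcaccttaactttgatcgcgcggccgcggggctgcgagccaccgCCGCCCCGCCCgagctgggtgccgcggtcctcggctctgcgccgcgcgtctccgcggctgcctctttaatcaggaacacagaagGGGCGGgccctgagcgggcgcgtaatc
Sema3c: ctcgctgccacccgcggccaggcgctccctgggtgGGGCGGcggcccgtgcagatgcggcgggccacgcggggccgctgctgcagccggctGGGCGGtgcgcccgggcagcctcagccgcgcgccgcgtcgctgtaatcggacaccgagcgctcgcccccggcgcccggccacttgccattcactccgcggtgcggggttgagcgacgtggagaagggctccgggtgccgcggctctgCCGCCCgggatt
Sema3d: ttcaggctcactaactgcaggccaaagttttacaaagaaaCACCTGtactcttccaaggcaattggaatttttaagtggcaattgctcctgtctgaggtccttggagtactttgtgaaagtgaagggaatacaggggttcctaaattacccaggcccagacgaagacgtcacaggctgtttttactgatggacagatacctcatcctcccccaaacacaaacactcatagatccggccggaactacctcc
Unc5c: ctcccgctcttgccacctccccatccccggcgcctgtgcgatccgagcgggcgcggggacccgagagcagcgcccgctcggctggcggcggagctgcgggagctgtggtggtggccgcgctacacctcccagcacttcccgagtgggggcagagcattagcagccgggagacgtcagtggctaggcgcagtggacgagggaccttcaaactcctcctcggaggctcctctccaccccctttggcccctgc

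The Nrp2 window held 5 GC boxes, 2 of them overlapping, and the Sema3c window 3. The Sema3d window, with 46.8% G and C, held 1 CACCTG and no GC box, and the Unc5c window, with 71.2% G and C, held none of the 5 motifs. The table of RefSeq promoters matched 58 of the 67 genes, with 74 start windows. A GC box was in 71.6% of these windows, in 48.7% of the windows of genes on the array and in 32.7% of all 32851 windows. The shares for the members' windows, the windows of genes on the array and all windows were 10.8%, 11.5% and 12.6% for the TEAD motif. They were 4.05%, 7.34% and 9.99% for the GATA motif, 2.7%, 8.75% and 12.4% for the TATA box, and 13.5%, 17.1% and 17.2% for the E-box. A match is a description of the letters only.

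Class 3 semaphorins, the secreted ligands of neuropilins, were 2-fold higher in PDPN+ than in PDPN- cells for 5 of 6 members above the floor, where 19.9% of all genes were. For 4 of the 5, Sema3c, Sema3e, Sema3f and Sema3g, the PDPN- array was below the floor, so they entered through the PDPN+ array alone and the size of their difference is uncertain. Sema3d, a ligand known from heart and coronary development, was at 4045 in PDPN+ and 385 in PDPN-, and at 2678 in ITGA8+ and 3433 in ITGA8- cells. Its PDPN- array stood 10.1-fold below the PDPN+ array, and the 3 other fractions lay within 2-fold of each other. Sema3c, a ligand of outflow tract and vascular development, was at 879 in PDPN+ and 67 in PDPN-, and at 329 in ITGA8+ and 750 in ITGA8- cells. Against a PDPN- array below the floor it was 10.8-fold higher in PDPN+ cells, with a log2 difference between 2.08 and 3.69 over the alternative settings, and it was 2.22-fold lower in ITGA8+ than in ITGA8- cells. Sema3g was at 367, 47, 76 and 227 in the same order, so both the PDPN- and the ITGA8+ arrays lay below the floor. Its differences were 2.60 toward PDPN+ and -1.40 for ITGA8+ minus ITGA8-. Sema3e, whose receptor is plexin D1, was at 195 in PDPN+ and 11 in PDPN-, and at 93 in ITGA8+ and 159 in ITGA8- cells.

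Sema3f, a ligand with a preference for neuropilin 2, was at 382 in PDPN+ and 31 in PDPN-, and at 784 in ITGA8+ and 566 in ITGA8- cells. Sema3f shared the low PDPN- value but, unlike Sema3c and Sema3g, had its highest value in ITGA8+ cells by the probe set used. Of its further probe sets, 1 was also highest in ITGA8+ cells, at 271, 68, 378 and 271 in the same order. Another was highest in PDPN+ cells, at 326, 50, 235 and 225. Sema3a, the founding repellent of the class and a ligand of neuropilin 1, was at 1870 in PDPN+ and 1230 in PDPN-, and at 5485 in ITGA8+ and 3422 in ITGA8- cells. Neither split passed 2-fold for Sema3a, and ITGA8+ cells were 2.92-fold above PDPN+ cells by the probe set used, a log2 difference of 1.54. Further Sema3a probe sets gave -0.21 and -0.03 for ITGA8+ minus PDPN+, and over the alternative settings the difference lay between 0.44 and 1.55. Sema3b stayed between 76 and 137 in the 4 fractions, around the floor.

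The neuropilins, the co-receptors of these ligands, parted. Nrp2 was at 2928 in PDPN+ and 80 in PDPN-, and at 2441 in ITGA8+ and 3498 in ITGA8- cells, 30.7-fold higher in PDPN+ than in PDPN- cells. Only the PDPN- array was below the floor, and the other 3 fractions lay within 2-fold of each other. Nrp1 was at 9656, 6015, 13372 and 11295 in the same order, and neither split passed 2-fold. The 2 further probe sets of Nrp2 gave differences of 3.35 and 3.50 between PDPN+ and PDPN- cells, in the direction of the 4.94 of the one used.

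Plexins, the signalling receptors of semaphorins, differed mainly within the A class. Plxna4 was at 618 in PDPN+ and 60 in PDPN-, and at 280 in ITGA8+ and 613 in ITGA8- cells, the same order as Sema3c. Plxna1 (2432, 1085, 3639 and 2806) and Plxna3 (657, 282, 472 and 586) were 2.22-fold and 2.26-fold higher in PDPN+ than in PDPN- cells. Plxna2 ran against them, at 188 in PDPN+ and 637 in PDPN-, and at 1073 in ITGA8+ and 617 in ITGA8- cells. The gene was 3.20-fold lower in PDPN+ than in PDPN- cells and 5.34-fold higher in ITGA8+ than in PDPN+ cells, log2 differences of -1.68 and 2.42. Its 2 further probe sets above the floor gave smaller ones, -0.38 and -1.0 for the PDPN split and 0.47 and 1.26 for ITGA8+ minus PDPN+.

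The B plexins, receptors of class 4 semaphorins, varied less. Plxnb1 lay between 2157 and 2378 in the 4 fractions, and Plxnb2 between 3212 and 5538, with no split past 2-fold. Plxnb3 was low, at 74, 21, 116 and 39, and 2.40-fold higher in ITGA8+ than in ITGA8- cells with only the ITGA8+ array above the floor. Plxnc1, the receptor of Sema7a, was at 534 in PDPN+ and 875 in PDPN-, and at 1216 in ITGA8+ and 1073 in ITGA8- cells. It was 2.24-fold higher in ITGA8+ than in PDPN+ cells. Plxnd1, an endothelial receptor for Sema3e, stayed between 101 and 176.

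Class 4 semaphorins, which are membrane-bound, hold 2 of the 7 genes whose PDPN- array was the highest of the 4, a pattern of 26.1% of all genes. Sema4g was at 3323 in PDPN+ and 6475 in PDPN-, and at 2362 in ITGA8+ and 1756 in ITGA8- cells, and Sema4a at 1942, 2997, 961 and 664. Both stayed within 2-fold between PDPN+ and PDPN- cells, with differences of -0.96 and -0.62, and Sema4a was 2-fold lower in ITGA8+ than in PDPN+ cells. Sema4d, a plexin B1 ligand also known from lymphocytes, was at 2241 in PDPN+ and 964 in PDPN-, and at 1818 in ITGA8+ and 2815 in ITGA8- cells, 2.30-fold higher in PDPN+ than in PDPN- cells. Sema4b (2137 to 3771) and Sema4c (1012 to 1934) stayed within 2-fold in both splits. Sema4f, a class 4 member known from neurons and Schwann cells, was at 69, 21, 336 and 134, and 2.35-fold higher in ITGA8+ than in ITGA8- cells.

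The 2 class 5 semaphorins passed 2-fold in different splits. Sema5a was at 1302 in PDPN+ and 419 in PDPN-, and at 871 in ITGA8+ and 1218 in ITGA8- cells, and 3.03-fold higher in PDPN+ than in PDPN- cells. Sema5b was low throughout, at 6, 79, 168 and 27, and its 4.28-fold difference toward ITGA8+ cells rests on 1 array above the floor. Among class 6, Sema6a, a transmembrane ligand of A-type plexins, was at 1293 in PDPN+ and 139 in PDPN-, and at 819 in ITGA8+ and 1482 in ITGA8- cells, 8.45-fold higher in PDPN+ than in PDPN- cells. Another probe set of Sema6a, at 120 and 92, differed by 0.33 where the one used differed by 3.08. Sema6d, a ligand of plexin A1 in the heart, was between 2804 and 3998 and within 2-fold in both splits. Sema6b (178 to 287) and Sema6c (58 to 231) passed 2-fold in neither split.

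A-class ephrins, the lipid-anchored ligands, were 2-fold higher in PDPN+ than in PDPN- cells for 3 of 4 members above the floor, where 19.9% of all genes were. Efna1, an ephrin of vascular and epithelial cells, was at 1003 in PDPN+ and 267 in PDPN-, and at 215 in ITGA8+ and 673 in ITGA8- cells. PDPN+ and ITGA8- cells were thus the high pair, 3.60-fold and 2.98-fold above their counterparts. Efna4 was at 337, 109, 183 and 538, with the same high pair. Efna2 was at 7400 in PDPN+ and 1904 in PDPN-, and at 4150 in ITGA8+ and 6261 in ITGA8- cells, 3.86-fold higher in PDPN+ than in PDPN- cells. Efna3 had another order, at 38, 52, 484 and 256, so that both arrays of the ITGA8 sort lay above both of the PDPN sort. Efna5 was between 576 and 1120 and within 2-fold in both splits.

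B-class ephrins, which also signal back into the cell that carries them, were 2-fold higher in PDPN+ than in PDPN- cells for 2 of 3 members, against the same 19.9% of all genes. Efnb2, the ephrin of arterial endothelium, was at 1687 in PDPN+ and 318 in PDPN-, and at 1346 in ITGA8+ and 1914 in ITGA8- cells. Efnb3 was at 986, 187, 1286 and 1119. These were differences of 2.35 and 2.30 between PDPN+ and PDPN- cells, and neither gene differed by 2-fold between ITGA8+ and ITGA8- cells. Efnb1 was between 814 and 1436 and within 2-fold in both splits.

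Of 5 A-class Eph receptors above the floor 3, Epha3, Epha4 and Epha7, were 2-fold higher in PDPN+ than in PDPN- cells, where 19.9% of all genes were. Epha4, which binds ephrins of both classes, was at 6654 in PDPN+ and 1308 in PDPN-, and at 4363 in ITGA8+ and 7287 in ITGA8- cells. Epha7 was at 2182, 538, 815 and 2043, so it followed Efna1 in having PDPN+ and ITGA8- cells as the high pair. Epha3, a receptor of mesenchymal cells in heart development, was at 824 in PDPN+ and 315 in PDPN-, and at 1871 in ITGA8+ and 1445 in ITGA8- cells, with its highest value in ITGA8+ cells. Epha1, an epithelial receptor, was at 256, 493, 220 and 213, and Epha2 at 165, 260, 72 and 118. Both had their highest value in PDPN- cells without passing 2-fold in a split.

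Of 5 B-class Eph receptors 3 were 2-fold higher in ITGA8+ than in PDPN+ cells, where 16.3% of all genes were. For 2 of the 3, Ephb1 and Ephb6, the PDPN+ array was below the floor. Ephb2 was at 924 in PDPN+ and 293 in PDPN-, and at 3073 in ITGA8+ and 2074 in ITGA8- cells, and Ephb1 at 38, 7, 247 and 251. Ephb1, Ephb2, Efna3, Slit3 and Unc5c were the 5 of 57 genes with both ITGA8 arrays 2-fold above both PDPN arrays, or 8.77%, against 5.25% of all genes. For Ephb1 and Efna3 both PDPN arrays were below the floor, so they entered only through the ITGA8 arrays. For Slit3 the PDPN- array was below it. The count thus describes the members and is not evidence about them. Ephb3, at 360, 74, 661 and 694, was 4.18-fold higher in PDPN+ than in PDPN- cells, with the PDPN- array below the floor and a log2 difference of 2.06 that was 1.39 after loess correction. Ephb6, a receptor without kinase activity, was at 96, 129, 304 and 142 and just past 2-fold toward ITGA8+ cells, at 2.03-fold. Ephb4, the venous receptor of ephrin B2, was between 709 and 1166 and within 2-fold in both splits.

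Slits and robos showed the low PDPN- value in the ligands and not in Robo1. Slit2 was at 1235 in PDPN+ and 178 in PDPN-, and at 1499 in ITGA8+ and 1702 in ITGA8- cells, 6.45-fold higher in PDPN+ than in PDPN- cells. Slit3, known from diaphragm development, was at 112, 6, 269 and 325. Its difference of 2.54 between PDPN+ and PDPN- cells was 0.01 after loess correction. Robo1, a slit receptor of many migrating cells, was at 10238, 10651, 7655 and 9205, within 2-fold of itself in all 4 fractions. Robo2 was at 1923 in PDPN+ and 539 in PDPN-, and at 599 in ITGA8+ and 898 in ITGA8- cells, and it was the 1 gene of the 57 with the PDPN+ array 2-fold above each other fraction, where 2.7% of all genes had this pattern.

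Of 4 netrins 2 exceeded the floor in a fraction, and of 4 Unc5 receptors, which mediate repulsion from netrins, 3 did. Ntn1 was at 36 in PDPN+ and 161 in PDPN-, and at 217 in ITGA8+ and 171 in ITGA8- cells, 3.40-fold lower in PDPN+ than in PDPN- cells with the PDPN+ array below the floor. Ntn1 and Plxna2 were the 2 genes with the PDPN+ array 2-fold below each other fraction, a pattern of 1.52% of all genes. Ntn5 was between 81 and 138. Unc5c was at 1127 in PDPN+ and 485 in PDPN-, and at 7446 in ITGA8+ and 3245 in ITGA8- cells. Its ITGA8+ array was 2.29-fold above ITGA8- and 6.53-fold above PDPN+ cells. A further Unc5c probe set, at 114, 92, 445 and 527, kept the difference between the sorts, at 1.83 for ITGA8+ minus PDPN+, but gave -0.24 in place of 1.19 for ITGA8+ minus ITGA8-. Unc5a, at 15, 32, 212 and 52, exceeded the floor in ITGA8+ cells alone, and Unc5b, at 649, 241, 847 and 790, was 2.59-fold higher in PDPN+ than in PDPN- cells.

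ITGA8+ and PDPN+ cells, the positive fractions of the 2 sorts, were set side by side as well; this comparison shares an array with each split. Of 56 members compared, 16 were 2-fold higher in ITGA8+ cells, where 16.3% of all genes were, and 8 were 2-fold lower, where 14.2% of all genes were. The higher ones were Efna3 at 3.21, Sema5b at 3.06, Unc5a at 2.88, Unc5c at 2.71, Plxna2 at 2.42, Ephb1 at 2.28, Ntn1 at 2.16, Sema4f at 2.05, Ephb2 at 1.72, Sema6c at 1.68, Sema3a at 1.54, Ephb6 at 1.51, Epha3 at 1.17, Plxnc1 at 1.16, Slit3 at 1.16 and Sema3f at 1.01. For 8 of these 16 the PDPN+ array was at or below the floor. The ITGA8+ array was below it for Sema3g and Epha2, among the 8 lower genes. These genes entered through 1 array alone, so the counts describe the members and are not evidence about them. For Sema3a, Sema3f and Plxnc1 a further probe set had the opposite sign. The lower ones were Efna1 at -2.14, Sema3g at -2.06, Robo2 at -1.66, Epha7 at -1.40, Sema3c at -1.38, Plxna4 at -1.10, Epha2 at -1.04 and Sema4a just past the line. Sema4a was also the 1 gene with both PDPN arrays 2-fold above both ITGA8 arrays, a pattern of 2.94% of all genes. Macrophage markers moved with this comparison, 11 of 11 lower in ITGA8+ cells (3712 against 36237), as did 11 of 11 erythroid markers above the floor, all higher (53440 against 8076), and 10 of 12 mesothelial markers, lower (20988 against 64597). Itga8 and Pdpn, the markers of the 2 sorts, are in the stellate and mesothelial lists, and Itga8 is counted among the higher stellate markers. Neutrophil markers were lower for 7 of 9 (3069 against 30049). Higher were 6 of 10 endothelial, 6 of 12 stellate, 5 of 12 megakaryocyte and 4 of 7 neuronal and glial markers. Their part was not tested.

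The comparison of ALCAM+ with liver cells covers the step before the fractions. All genes had a median difference of 0.90 toward ALCAM+ on the log2 scale, which was subtracted from the values below. Of 39 members compared, 22 were then 2-fold higher in ALCAM+ cells, where 15.4% of all genes were, and 1 was 2-fold lower, where 11.2% of all genes were. For 12 of the 22 the liver array was at or below the floor, and for the 1 lower gene the ALCAM+ array was. These genes entered through 1 array alone, so the counts describe the members and are not evidence about them. The members' median was 1.11. Without the shift the numbers were 35 and 1, where 45.5% of all genes were higher and 2.55% lower.

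Sema3d was at 1011 in ALCAM+ and 45 in liver cells, 9.01-fold higher against a liver array below the floor. Epha3 was at 592 and 27, Sema3a at 708 and 60, and Unc5c at 592 and 63, with differences of 2.92, 2.35 and 2.04. Slit2 (1104 and 155), Robo2 (191 and 14) and Robo1 (3434 and 885) were at 1.81, 1.89 and 1.03. A further Slit2 probe set gave 0.22 and a further Robo1 probe set 0.08, and with the mean of probe sets Slit2 was at 0.44 and Robo1 at 0.74. Robo2, with its liver array below the floor, was at 0.89 after loess correction, so none of these calls held under every setting. Plxnb2 was at 1257 and 159, Plxna1 at 1013 and 161, and Plxnb1 at 538 and 86, and their differences were 1.96, 1.64 and 1.54.

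The other genes past 2-fold toward ALCAM+ cells lay between 1.01 and 1.86: Sema6a at 1.86, Sema5a at 1.81, Efna2 at 1.74, Epha4 at 1.72, Sema3c at 1.61, Ephb2 at 1.57, Epha7 at 1.49, Efnb2 at 1.38, Nrp1 at 1.37, Efna5 at 1.26, Nrp2 at 1.10 and Sema3f at 1.01. In ALCAM+ and liver cells the neuropilins were at 2690 and 543 (Nrp1) and at 788 and 184 (Nrp2), and the semaphorins at 310 and 32 (Sema6a), 279 and 29 (Sema5a), 377 and 53 (Sema3c) and 135 and 24 (Sema3f). The ephrins were at 1148 and 171 (Efna2), 767 and 159 (Efna5) and 621 and 115 (Efnb2), and the Eph receptors at 1145 and 173 (Epha4), 350 and 50 (Ephb2) and 589 and 99 (Epha7). The genes nearest to the line on the other side were Plxna3 at 0.99, Sema4g at 0.96, Plxna4 at 0.95 and Efnb3 at 0.95. After loess correction Sema3f was at -0.005. None of the 5 class 4 semaphorins above the floor passed it, and Sema4b (1395 and 856) and Sema4d (1673 and 1222) lay below the median gene, at -0.21 and -0.45. Plxnc1, at 322 and 274, was at -0.68. Epha5 was the 1 lower gene, at 20 in ALCAM+ and 132 in liver cells. Its 3 other probe sets were at 20, 17 and 21 in liver, below the floor, so the call rests on 1 probe set of 4. Mesothelial markers moved with this comparison, with 10 of 10 above the floor higher (16676 against 631), and erythroid markers against it, with 11 of 11 lower (14213 against 36687). Megakaryocyte markers were higher for 9 of 12 (32476 against 8297) and stellate markers for 6 of 9 (9233 against 2693), and neutrophil markers were lower for 7 of 9 (3335 against 7735); their part was not tested.

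**Figure D3:**
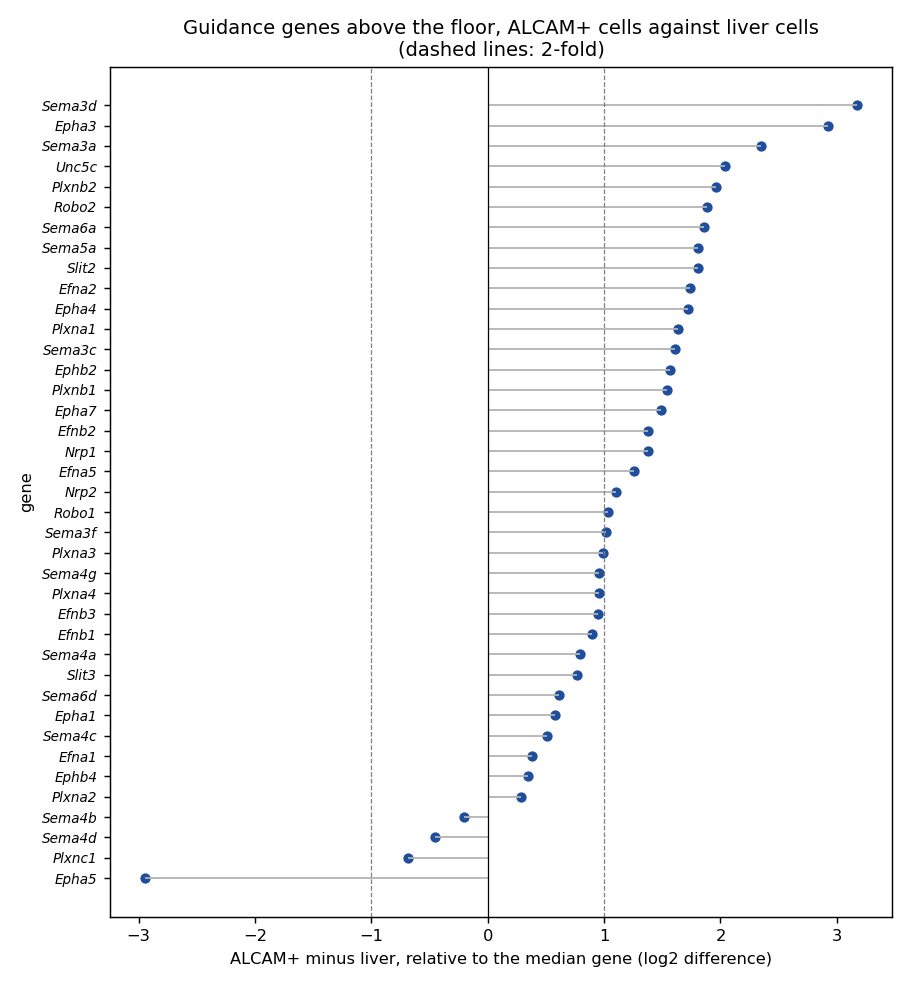
Log2 difference between ALCAM+ and liver cells, relative to the median gene, for the 39 guidance genes above the floor (rows); dashed lines mark 2-fold. Sema3d at 3.17 and Epha3 at 2.92 lead, and Epha5 at -2.94 is the 1 gene past 2-fold in the other direction.

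Other genes of these pathways were taken from lists of further receptors, further ligands and cytoplasmic effectors, 82 in all. The members of these lists past 2-fold and not described below are named without values. In the PDPN split 25 of 68 above the floor were 2-fold higher in PDPN+ cells and 3 lower, against 19.9% and 7.93% of all genes. In the ITGA8 split 3 of 74 were higher and 6 lower, against 5.38% and 6.0%. For ITGA8+ minus PDPN+ 10 of 72 were higher and 11 lower, against 16.3% and 14.2%. In ALCAM+ minus liver 27 of 58 were higher and 2 lower, against 15.4% and 11.2%. Their medians in these comparisons were 0.32, -0.08, 0.06 and 0.79. Read against the shares of all genes given above, these counts are a description of the lists.

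Among further receptors, Neo1, which encodes the netrin receptor neogenin, was at 6833 in PDPN+ and 1946 in PDPN-, and at 5990 in ITGA8+ and 6494 in ITGA8- cells, the pattern of Nrp2 in milder form. Dcc, the attractive netrin receptor, was at 18, 16, 151 and 184. Flrt1 and Flrt3, adhesion proteins that bind Unc5 receptors, were at 1910, 66, 420 and 1350 and at 2343, 126, 674 and 2005. They were higher in PDPN+ and in ITGA8- cells, like Epha7 and Efna1. Flrt2 ran with Unc5c instead, at 1390, 340, 5214 and 3767. Robo4, an endothelial robo, was at 50, 5, 346 and 312. Itga3, Mst1r and Nrcam were also 2-fold higher in PDPN+ than in PDPN- cells, Itga3 and Mst1r in ALCAM+ than in liver cells, and Met was lower in ITGA8+ than in PDPN+ cells.

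Among further ligands, Wnt5a was at 643 in PDPN+ and 32 in PDPN-, and at 169 in ITGA8+ and 387 in ITGA8- cells, and Rgmb, whose product binds neogenin, at 1226, 155, 687 and 1024. Cxcl12, a chemokine of stellate and other stromal cells, was higher in PDPN- and in ITGA8+ cells, at 3185, 8182, 5827 and 2438. Bdnf was higher in PDPN+ than in PDPN- cells and lower in ITGA8+ than in either ITGA8- or PDPN+ cells, Bmp7 was higher in ALCAM+ than in liver cells, and Draxin and Ntng1 were higher in ITGA8+ than in PDPN+ cells. Among cytoplasmic effectors 15 of 50 were 2-fold higher in PDPN+ than in PDPN- cells, against 19.9% of all genes. For 1, Rras, the value was 2-fold lower, against 7.93%. Of 51 effectors Rras and Arap3 were higher, and Arhgef11 and Trio lower, in ITGA8+ than in ITGA8- cells, against 5.38% and 6.0%. Rnd1, whose product binds plexins, was at 298 in PDPN+ and 16 in PDPN- cells, Srgap3, a slit-robo GTPase activating protein, at 362 and 54, and Mical1, an effector of plexins, at 1569 and 455. The collapsin response mediator Dpysl3, which acts downstream of semaphorins, was at 450 in PDPN+ and 231 in PDPN-, and at 5364 in ITGA8+ and 3512 in ITGA8- cells. Evl, Fes, Limk1, Limk2, Tiam1, Vav3, Dpysl5, Chn1, Chn2, Srgap1, Mical2 and Kalrn were the others higher in PDPN+ than in PDPN- cells. Between ITGA8+ and PDPN+ cells Dpysl3, Dpysl4, Crmp1, Arap3 and Farp2 were higher and Vasp, Gipc1, Arhgef11, Trio and Rnd1 lower in ITGA8+ cells. In ALCAM+ minus liver, Abl1, Abl2, Rnd2, Rnd3, Cfl2, Enah, Evl, Limk1, Dpysl3, Dpysl4, Chn2, Mical1, Mical2, Farp1, Ablim1, Srgap3, Dock1 and Kalrn were higher and Nck1 and Mical3 lower.

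Several of these genes have more than 1 probe set, the only internal check that single arrays offer. For the 27 members higher in PDPN+ than in PDPN- cells, 16 had further probe sets above the floor, and 23 of these 23 probe sets had the same sign, 21 of them past 2-fold. For the 6 members higher in ITGA8+ than in ITGA8- cells 1 had a further probe set, that of Unc5c, and it had the opposite sign; for the 6 lower ones 4 of 4 had the same sign and 2 passed 2-fold. For ALCAM+ minus liver 12 of 12 had the same sign and 7 passed 2-fold. For the 16 members higher in ITGA8+ than in PDPN+ cells 11 of 15 had the same sign and 5 passed 2-fold, and the exceptions belonged to Plxnc1, Sema3a and Sema3f. Probe sets of 1 gene share the array and the RNA, so they check the measurement and not the sample.

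**Figure D4:**
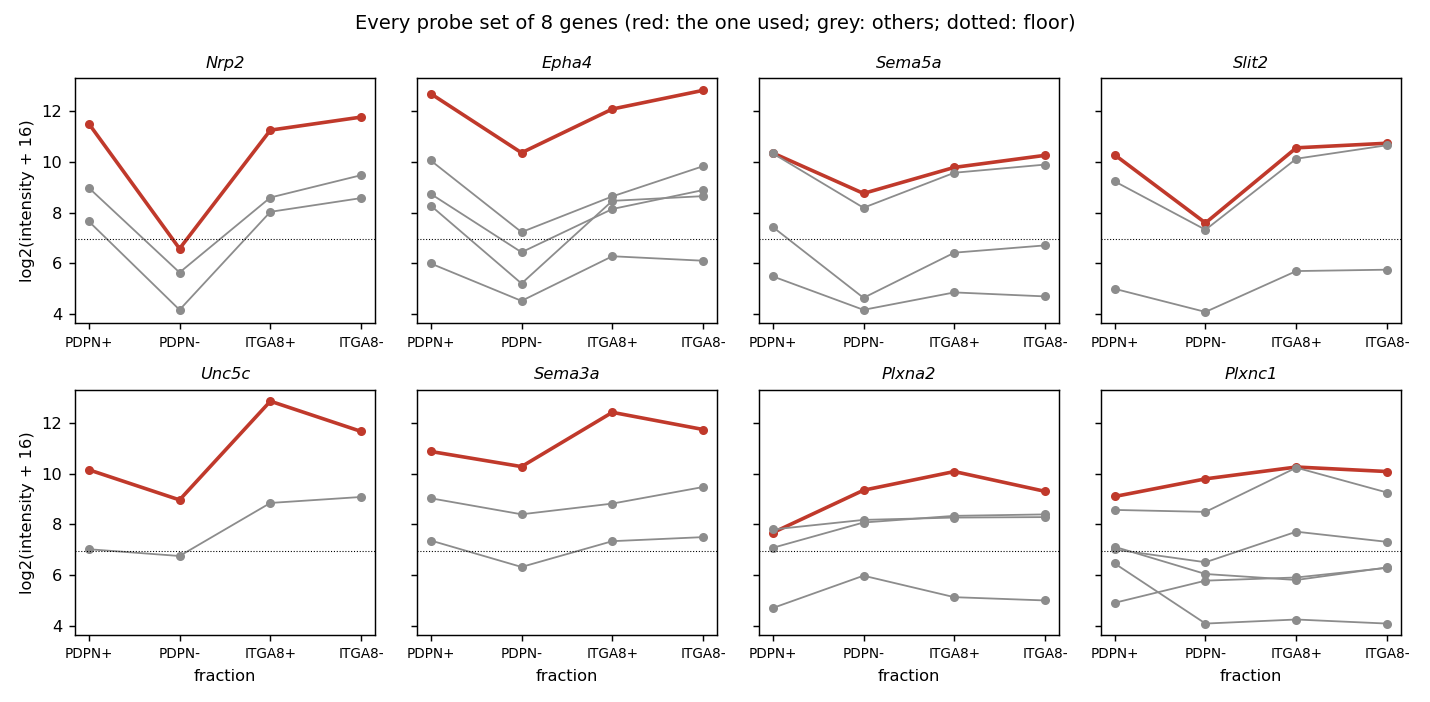
Log2(intensity + 16) of every probe set of 8 genes, picked after their values were seen, on the 4 fraction arrays; red is the probe set used, grey the others, the dotted line the floor, and lines only join the points of 1 probe set. The probe sets of Nrp2, Epha4, Sema5a and Slit2 all have their lowest value in PDPN- cells, while those of Unc5c and Sema3a differ on whether ITGA8+ or ITGA8- cells are higher.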

How the data were processed

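The authors deposited 1 table with a linear intensity, rounded to a whole number, for each probe set of 6 GeneChip Mouse Genome 430 2.0 arrays. Per the labels' protocols, probes were made from 20 ng of total RNA by amplification and labelled with biotin; RMA and Partek are named in the submitters' processing notes, without a version. Each array's group came from its source label. Of 45101 probe sets, 38011 named 1 gene, for 20678 genes; symbols followed RefSeq (GRCm38.p6), where 92.11% of these probe sets found their gene. The members have 146 probe sets; 44 genes have several and 23 have 1, and none was lost to a probe set that names several genes.

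Values were analysed with Python 3.11.15, numpy 2.4.6 and pandas 2.3.3 as log2(intensity + 16), with 1 probe set per gene and a floor of 109.0, and genes were counted at 2-fold; the script was tested on simulated data. The 2 scales of the arrays affect levels set across them, and arrays limit precision by their number. Members, lists and the rules of naming were chosen with earlier results of these data known. By the naming rule, members past 2-fold in the PDPN or ITGA8 split or in ALCAM+ minus liver, and the highest of each family, are named with their values; the rest are given by range or count, and listed pathway genes past 2-fold are named. Alternatives were other pseudocounts, floors, probe sets, normalisations, centring and a 4-fold line.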

Additional observations from a re-analysis of the deposited data

How the results depend on the processing

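There were no replicates, so no sample could be left out and no spread between samples enters these statements. No paired analysis was possible because each group has 1 array. Of the members past 2-fold, the number that also passed under each of the 11 other settings (all but the 4-fold line) was 19 of 29 between PDPN+ and PDPN-, 3 of 12 between ITGA8+ and ITGA8-, 10 of 24 for ITGA8+ minus PDPN+ and 7 of 23 for ALCAM+ minus liver; a member that a higher floor took out of a comparison counts as not passing.

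For ALCAM+ minus liver, 22 members higher and 1 lower became 34 and 2 with no floor, 10 higher and 0 lower with the mean of a gene's probe sets, 35 higher as deposited, when the median went from 1.11 to 2.01, and 4 higher at 4-fold; 0 were lower with the floor at 2 times the median. For PDPN+ minus PDPN-, 2 lower became 5 with no floor, 1 with the floor at 2 times the median, 1 with the floor of the fraction arrays (168.0) and 1 with the mean of probe sets, and 6 with quantile normalisation and 6 with loess; at 4-fold 14 were higher and 0 lower. For ITGA8+ minus ITGA8-, 6 higher and 6 lower became 3 higher with the floor at 2 times the median, 3 and 3 with the mean of probe sets, and 1 and 0 at 4-fold. For ITGA8+ minus PDPN+, 8 lower became 5 with a pseudocount of 64, and at 4-fold 8 were higher and 2 lower. The number of members varying 2-fold over the fractions, 44, was 26 with the PDPN- array left out.

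Among members past 2-fold 1 sign turned: Sema3f in ALCAM+ minus liver, 1.01, was -0.005 after loess. Differences within 2-fold also turned sign under some settings, so their directions are not firm. Slit3 in PDPN+ minus PDPN-, 2.54, was 0.01 after loess. The cause was not tested.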

Other observations

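Values of a few genes invite a second look, and are given without explanation. Sox10, a transcription factor of neural crest and Schwann cells and not a guidance gene, was at 393 in ITGA8+ and 238 in ITGA8- cells but at 4 in PDPN+ and 25 in PDPN- cells. Both arrays of the ITGA8 sort were thus above both of the PDPN sort, as they were for Ephb1, Efna3 and Unc5c. Of the 12 neuronal and glial markers, 6 were above the floor in ITGA8+, 7 in ITGA8-, 3 in PDPN+ and 3 in PDPN- cells, while Tubb3, a neuronal tubulin, was at 34, 6, 2 and 5.

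The Timd2 gene, whose product binds a class 4 semaphorin among other ligands, split by sort in the opposite way, at 3346 in PDPN+ and 7903 in PDPN- cells against 338 in ITGA8+ and 414 in ITGA8- cells. Arap3, a GTPase activating protein, was at 2657 in ITGA8+ and 1110 in ITGA8- cells and at 349 in PDPN+ and 287 in PDPN- cells. Vasp, an actin regulator downstream of robo receptors, had the reverse order of sorts, at 6727 in PDPN+ and 6807 in PDPN- cells and at 2196 in ITGA8+ and 4092 in ITGA8- cells. Whether these orders belong to the cells or to the 2 sorts cannot be told apart with 1 array per fraction.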
